A study of Mus musculus with 80 samples.

Results

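The 52 genes described here encode the conjugating enzymes of phase II metabolism: the glutathione S-transferases (GST), the sulfotransferases (SULT) and the UDP-glucuronosyltransferases (UGT). They are every gene of the deposited table whose symbol starts with Gst and a class letter (a, k, m, o, p, t or z), with Sult, or with Ugt1, Ugt2 or Ugt3, followed by its number. This took 52 of 14560 genes, of which 21 were GST, 14 were SULT and 17 were UGT genes. The GST genes comprised 4 of class alpha, 1 kappa, 8 mu, 1 omega, 3 pi, 3 theta and 1 zeta. Of the mu genes, Gstm2-ps1 is annotated as a processed pseudogene. The SULT genes comprised 5 of family 1, 6 of family 2, 2 of family 3 and 1 of family 5, and the UGT genes 7 of family 1, 8 of family 2 and 2 of family 3. All 52 passed the filter on low values, which asked for 10 normalized counts or more in 5 or more libraries.

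RNA was sequenced from livers of 80 mice, all labelled as females of 8 weeks on the C57BL/6J background, either wild type or Adamts12-/-. Adamts12 encodes a metalloproteinase that cells secrete. Every mouse received a single intraperitoneal injection. It held either carbon tetrachloride (CCl4), dosed at 0.3 ml per kg and given at 3% by volume in olive oil, or, as the vehicle, olive oil. CCl4 is a hepatotoxin that cytochrome P450 converts to reactive radicals in hepatocytes around the central vein. Livers were taken 4 h, 12 h, 24 h or 7 days later, which gave 16 groups of 5 mice, and each genotype and time had its own vehicle group. The labels number the mice and state no shared litter or day, so p-values measure the spread between these mice only.

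Library depth ranged from 18.65 to 64.49 M reads, with a median of 32.75 M reads. Adamts12 averaged 23.6 ± 16.6 normalized counts in wild type (SD, n = 40) and 8.2 ± 5.5 in Adamts12-/- livers (SD, n = 38), and the ranges overlapped. The 12 h Adamts12-/- CCl4 replicate 5 and vehicle replicate 1 were left out of every fit. Of the 29 members called in that comparison, the left-out CCl4 library lay nearer to the vehicle mean for 28 and the left-out vehicle library lay nearer to the CCl4 mean for 29. A further library, the 4 h Adamts12-/- vehicle replicate 1, went against the label of female: its Xist count was 90, against 3274 to 27989 in the other 77 libraries, and its Cyp4a12a count was 10204, against 0 to 231. It exceeded every other library in 6 members, and results that rest on it are given with and without it.

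Conjugation attaches a polar group to a reactive or fat-soluble molecule so that it can be exported into bile or urine. GST enzymes add glutathione to electrophiles, including products of lipid peroxidation. SULT enzymes move a sulfate group from the donor PAPS to hydroxyl or amine groups of phenols, steroids and bile acids, and UGT enzymes add a sugar, usually glucuronic acid from UDP-glucuronate, to bilirubin, steroids and drugs. Hepatocytes hold most of these enzymes, several of them are more abundant around the central vein, and their genes are known targets of NRF2, AhR, CAR, PXR and the HNF factors.

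The 250 bases before the start of the 3 called members with the largest rise at 12 h in wild type are shown. These genes rose at a time when more members were called lower than higher. That of Gsta3, an abundant alpha-class gene that fell, is shown beside them. It was picked because it holds a core motif of the antioxidant response element, the sequence bound by NRF2. Its match therefore does not show whether genes that fell hold this core more often than genes that rose. They are RefSeq promoters on GRCm38.p6, for Gsta1 at chr9:78230419-78230668 (plus strand), Gstp1 at chr19:4037913-4038162 (minus strand), Ugt2b37 at chr5:87254789-87255038 (minus strand) and Gsta3 at chr1:21240335-21240584 (plus strand). Capitals mark the AhR core GCGTG in Gstp1 and a match to the NRF2 core TGACNNNGC in Gsta3.
Gsta1: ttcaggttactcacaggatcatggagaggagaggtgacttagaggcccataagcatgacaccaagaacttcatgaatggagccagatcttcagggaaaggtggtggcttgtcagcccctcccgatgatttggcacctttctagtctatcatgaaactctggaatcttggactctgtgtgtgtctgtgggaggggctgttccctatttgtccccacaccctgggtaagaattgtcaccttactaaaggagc
Gstp1: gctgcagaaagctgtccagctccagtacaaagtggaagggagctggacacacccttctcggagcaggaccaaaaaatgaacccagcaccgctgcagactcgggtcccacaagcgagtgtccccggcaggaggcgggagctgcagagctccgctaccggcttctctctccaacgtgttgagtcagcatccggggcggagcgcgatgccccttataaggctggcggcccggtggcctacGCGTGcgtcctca
Ugt2b37: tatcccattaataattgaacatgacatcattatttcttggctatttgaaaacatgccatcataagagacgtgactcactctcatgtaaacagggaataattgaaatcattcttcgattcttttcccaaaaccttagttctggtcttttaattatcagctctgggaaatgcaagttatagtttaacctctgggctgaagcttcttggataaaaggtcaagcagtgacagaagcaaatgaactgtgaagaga
Gsta3: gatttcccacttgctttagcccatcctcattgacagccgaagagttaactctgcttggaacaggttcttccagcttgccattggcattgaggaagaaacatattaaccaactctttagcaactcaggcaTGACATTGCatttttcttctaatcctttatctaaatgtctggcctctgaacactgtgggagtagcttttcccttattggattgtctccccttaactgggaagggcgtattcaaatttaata

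A promoter of this length was found for 44 of the 52 members. Both strands were searched for 4 motifs. TGACNNNGC occurred in 3 members (Gsta3, Gstm5 and Gstm7), or 6.8%, against 10.16% of all 32851 promoters. GCGTG occurred in 8 members, or 18.2%, against 28.16%. The D-box TTATGTAA occurred in 1 member, Ugt2b1, or 2.3%, against 0.82%, and a palindromic HNF1 site in 0 members, against 0.01%. The promoters of Gsta1 and Ugt2b37 held no match to any of the 4 motifs. The Gstp1 match lay at positions -13 to -9 and the Gsta3 match at -121 to -113, counted from the start. A match is a run of letters and was not tested as a binding site. Only the stated letters within this length were searched. Other forms of these motifs, in Gstp1 or elsewhere, and sites further from the start were not tested. The part of NRF2 in the rises and falls was not tested either. The motifs overlap in places: in Gstm5 the bases at -38 to -34 belonged to both cores.

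In vehicle-treated wild-type livers the members differed widely in abundance. Levels between genes are compared here as normalized counts per kilobase of exon, as the median of 20 libraries. Gstm1, the main mu-class enzyme, led with 23769.5, followed by the phenol sulfotransferase Sult1a1 with 9322.4, Gsta3 with 6742.9, Ugt2b5 with 6579.3 and the steroid sulfotransferase Sult2a2 with 6407.9. The lowest were Gsta1 with 3.6 and Ugt1a7c with 2.7. Some members share sequence with near copies, and how the authors' counting treated reads that match several genes is not given in the sources used here. The share of 75-base words found also in another gene was 84.7% for Gsta1 (69.3% with the gene model Gm3776), 36.6% for Gsta2, 29.2% for Gstp1, 50.1% for Gstp2, 47.2% for Sult2a2 and 51.2% to 74.8% for the Ugt1a genes, which share their last exons. Values of these genes are therefore uncertain between the copies. So is their place in the order of levels, because the exon length includes the shared sequence. For Ugt2b37 the share was 6.4%, and for Gsta3, Gsta4, Gsto1, Gstz1, Sult1b1 and Sult1e1 it was 0.0%.

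At 12 h and 24 h after CCl4 most conjugating enzymes fell in wild type, and a small group rose, some of them steeply. In wild type 4 members rose and 14 fell at 4 h, 5 rose and 29 fell at 12 h, and 6 rose and 28 fell at 24 h, at an adjusted p under 0.05 (limma on log2 of the normalized count plus 1, Benjamini-Hochberg over all 14558 genes tested). Over all genes 23.1% were called higher and 20.5% lower at 4 h, 29% and 29.4% at 12 h, and 26.2% and 25% at 24 h. The share of members called in either direction was 34.6% against 43.6% of all genes at 4 h, 65.4% against 58.4% at 12 h and 65.4% against 51.2% at 24 h. The median member difference was -0.52, -1.12 and -1.30 on the log2 scale at the 3 times, and that of all genes was -0.03, -0.05 and 0.04. In liver tissue, fewer cells of a type and less RNA per cell cannot be told apart in any of these values.

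By superfamily, the 14 falls at 4 h were 11 GST, 1 SULT and 2 UGT genes, and the median differences were close, at -0.68, -0.49 and -0.39. The SULT genes also varied more between mice of a group, with residual SDs from 0.362 to 1.718 on the log2 scale, against 0.186 to 1.276 for GST and 0.319 to 1.353 for UGT genes, so the 4 h counts do not give an order in time. No test compared the superfamilies. SULT genes counted 0 rises and 8 falls at 12 h and 0 rises and 10 falls of 14 at 24 h, and their median difference reached -2.09 and -2.65. UGT genes counted 1 rise and 12 falls of 17 at 12 h and 2 rises and 9 falls at 24 h, with medians of -1.78 and -1.11. The GST genes were divided, with 4 rises and 9 falls of 21 at both times and medians of -0.13 and -0.49. The CCl4 effect differed between the 4 times for 34 of 52 members (65.4%, near the 62.9% of all genes). The share of all counts taken by the SULT genes was 0.042% ± 0.014 in CCl4 against 0.107% ± 0.008 in vehicle livers at 12 h, and 0.047% ± 0.014 against 0.116% ± 0.015 at 24 h (SD, n = 5). The 5 wild-type CCl4 livers lay below all 5 vehicle livers at both times. In Adamts12-/- livers the SULT shares overlapped at both times. They ran from 0.032% to 0.099% against 0.068% to 0.106% at 12 h, and from 0.032% to 0.083% against 0.074% to 0.104% at 24 h. For GST genes the wild-type share at 12 h was 0.244% ± 0.133 against 0.22% ± 0.097 (SD, n = 5), and the groups overlapped. At 4 h the wild-type GST share was lower without overlap, 0.188% to 0.28% in CCl4 against 0.292% to 0.473% in vehicle livers.

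**Figure D1:**
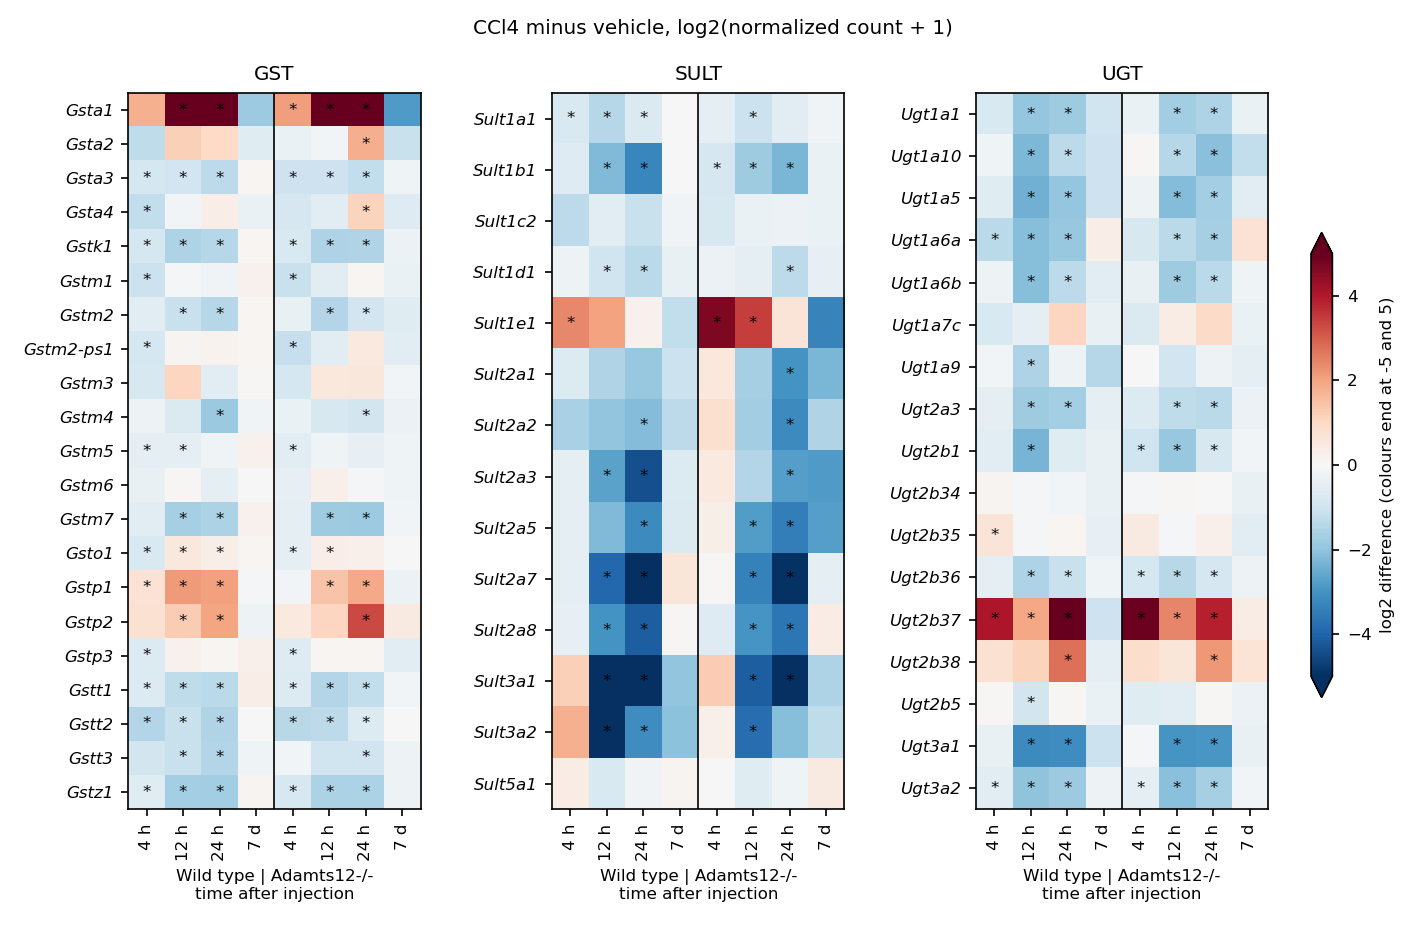
Heat map of the CCl4 minus vehicle difference (log2) of the 52 members in wild type and Adamts12-/- livers at 4 h, 12 h, 24 h and 7 days, with an asterisk where the adjusted p was under 0.05 and colours that end at -5 and 5. Gsta1, Gstp1 and Ugt2b37 stand out as higher among mostly lower SULT, UGT and other GST genes at 12 and 24 h, and no member has an asterisk at 7 days.

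Gsta1, an alpha-class enzyme that conjugates electrophiles and reduces lipid hydroperoxides, rose more than any other member at 12 h and 24 h. At 12 h its normalized counts were 883, 1070, 1204, 911 and 247 in the wild-type CCl4 livers and 22, 3, 3, 2 and 3 in the vehicle livers. At 24 h they were 1278, 1784, 425, 169 and 1146 against 0 in each of the 5 vehicle livers. Each CCl4 liver lay above every vehicle liver at both times. The fitted difference was 7.14 (SE 0.78, adjusted p = 6.44e-12) at 12 h. At 24 h the vehicle group held 0 reads in all, so the rise was at least 348-fold against a floor of 3 reads per library, and the fitted value of 9.49 (SE 0.78, adjusted p = 2.27e-15) depends on the added 1 count. At 4 h the counts were 153, 164, 75, 68 and 117 against 4, 29, 18, 140 and 90, the groups overlapped, and the difference of 1.76 (SE 0.78) missed the threshold (adjusted p = 0.0615).

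The other alpha-class genes did not share this course. Gsta3, which conjugates aflatoxin epoxide in mice, fell at each of the 3 times in wild type. Its counts at 24 h were 9775, 12057, 6432, 9934 and 10843 against 27059, 21208, 31818, 25573 and 16106, with no overlap, a difference of -1.30 (SE 0.27, adjusted p = 4.46e-05). At 4 h and 12 h the Gsta3 difference was -0.88 (adjusted p = 0.00553) and -0.96 (adjusted p = 0.00175), and the groups overlapped. Gsta4, which clears lipid peroxidation aldehydes such as hydroxynonenal, fell at 4 h from 1709, 1916, 1665, 2182 and 2119 to 1201, 818, 687, 560 and 984 (difference -1.22, SE 0.42, adjusted p = 0.0147). All CCl4 livers were lower than all vehicle livers. At 24 h the Gsta4 counts ran from 186 to 2326 among CCl4 livers, around 317 to 473 in vehicle livers, and the difference was 0.32 (adjusted p = 0.538). Gsta2 was not called at any time in wild type, with differences of -1.26, 1.20 and 1.01 at 4, 12 and 24 h (adjusted p = 0.0669, 0.0655 and 0.134).

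Gstp1, the pi-class enzyme that conjugates a wide range of electrophiles, rose at all 3 times. At 4 h it counted 4490, 5338, 5333, 4331 and 5741 in CCl4 livers and 2775, 3280, 2565, 3525 and 2932 in vehicle livers. At 12 h the values were 9033, 17664, 11689, 10602 and 7341 against 4119, 1938, 2223, 2047 and 2604, and at 24 h 15261, 16247, 9711, 9865 and 14598 against 3401, 3422, 3249, 2680 and 2871. The groups did not overlap at any of these times. The fitted rises were 1.67-fold (log2 0.74, SE 0.29, adjusted p = 0.0297), 4.34-fold (adjusted p = 4.02e-09) and 4.12-fold (adjusted p = 2.02e-08). The 4 h call rested on single libraries: leaving out any of 5 libraries gave adjusted p-values from 0.0522 to 0.065, and quantile normalization gave 0.0682. Gstp2, a near copy with 50.1% shared words, ran from 61.5 to 168.2 in CCl4 and from 13.4 to 57.1 in vehicle livers at 24 h, a rise of 1.98 (SE 0.46, adjusted p = 0.000202). Without mice numbered below 7000, which leaves 1 vehicle liver, its difference was 0.84 (adjusted p = 0.414). Gstp3, the remaining pi gene, fell at 4 h from 558.4-867.6 to 378.1-452.0 (difference -0.68, SE 0.24, adjusted p = 0.017) and lay at 0.22 and 0.08 at 12 and 24 h, neither called.

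Gsto1, the omega-class enzyme that acts as a thiol transferase and reduces arsenic compounds, was the only member called in both directions in wild type. At 4 h it fell from 3575, 3551, 3666, 4168 and 4552 to 2384, 2031, 2364, 2016 and 2726 (difference -0.76, SE 0.12, adjusted p = 2.38e-07). At 12 h it rose to 3918, 3592, 4935, 3920 and 3298 from 3256, 2617, 2279, 3115 and 2378 (difference 0.53, SE 0.12, adjusted p = 0.00013). Neither pair of groups overlapped. At 24 h the Gsto1 groups overlapped, 2136 to 3705 against 2247 to 2764, and the rise of 0.31 (SE 0.12, adjusted p = 0.0249) was lost without any of 5 single libraries (adjusted p = 0.0549 to 0.105).

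The kappa, theta and zeta genes fell. Gstz1, which isomerizes maleylacetoacetate in tyrosine breakdown, counted 5432, 12196, 4755, 5274 and 4819 in CCl4 livers at 12 h against 22916, 17476, 17660, 20677 and 18536 in vehicle livers. At 24 h its counts were 6717, 8715, 2613.1, 11523 and 8326 against 22873, 20843, 23600, 24451 and 21696. The groups did not overlap, replicate 2 being the highest CCl4 liver at 12 h, and the falls were -1.68 (SE 0.22, adjusted p = 2.1e-09) and -1.73 (SE 0.22, adjusted p = 2.03e-09). The 4 h fall of -0.62 (adjusted p = 0.0184) was lost without vehicle replicate 4 (adjusted p = 0.0576). Gstk1, a mitochondrial and peroxisomal enzyme, ran from 722.4 to 1962.3 against 2754.6 to 3349.0 at 12 h, a fall of -1.56 (SE 0.25, adjusted p = 3.28e-07). Gstt1, which dehalogenates small halogenated hydrocarbons, ran from 1193.2 to 2879.1 against 4106.1 to 5574.4 at 24 h (difference -1.33, SE 0.22, adjusted p = 1.14e-06). Gstt2 fell by 1.48 at 4 h (SE 0.28, adjusted p = 1.41e-05), from 1789.4-2994.2 to 581.5-1296.2. Gstt1, Gstt2 and Gstk1 were called lower at all 3 times, and Gstt3 at 12 and 24 h (-1.10 and -1.47).

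Among the 8 mu genes, 3 were called lower at each time, and the genes differed. At 4 h these were Gstm1, Gstm5 and the pseudogene Gstm2-ps1. Gstm1 ran from 17486.1 to 25648.1 in CCl4 and from 31184.6 to 52974.5 in vehicle livers, without overlap (difference -1.07, SE 0.29, adjusted p = 0.00154), and at 12 and 24 h its differences were -0.08 and -0.17, neither called. At 24 h Gstm4 fell from 1196.3-1597.9 to 277.3-753.8 (difference -1.87, SE 0.37, adjusted p = 2.17e-05), Gstm7 from 1432.0-1868.1 to 225.6-1227.4 (difference -1.57, adjusted p = 0.000121) and Gstm2 from 2121.2-3361.9 to 810.0-1377.1 (difference -1.44, adjusted p = 4.54e-05). None of these 3 overlapped between the groups. Gstm7 and Gstm2 were also called lower at 12 h, with Gstm5 (-0.50, adjusted p = 0.0133). The Gstm5 and Gstm2-ps1 calls at 4 h were each lost without any of 7 single libraries. Gstm3 and Gstm6 were not called at any time.

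The largest falls of the set were in the SULT genes. Sult3a1, which sulfates amines, counted 199, 98, 201, 133 and 227 in CCl4 livers at 12 h against 4840, 8573, 6545, 5535 and 7188 in vehicle livers. At 24 h the counts were 65, 82, 5, 0 and 59 against 92, 1082, 2186, 1493 and 2983. Both comparisons were without overlap, at 24 h narrowly so, since vehicle replicate 1 stood close to the CCl4 livers. The falls were 38.88-fold (log2 -5.28, SE 1.04, adjusted p = 1.43e-05) and 54.29-fold (log2 -5.76, SE 1.04, adjusted p = 4.22e-06). At 4 h Sult3a1 spread from 1048 to 3298 in CCl4 and from 276 to 2646 in vehicle livers (difference 1.20, SE 1.04, adjusted p = 0.375). Its neighbour Sult3a2 fell at 12 h from 188.6-989.4 to 3.1-25.2 (difference -5.53, SE 0.96, adjusted p = 1.3e-06), and at 24 h its groups overlapped, 2.1 to 10.1 against 1.1 to 190.5 (difference -3.12, adjusted p = 0.00499).

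Sult2a8, a bile acid sulfotransferase of mouse liver, was not called at 4 h and then fell. Its counts at 4 h were 11209, 7523, 9789, 7528 and 6693 against 9916, 12388, 15824, 8909 and 10472 (difference -0.42, SE 0.49, adjusted p = 0.525). At 12 h they were 995, 3943, 621, 1057 and 774 against 14094, 7637, 7317, 7852 and 10187, and at 24 h 936, 2050, 126, 788 and 926 against 19205, 11546, 13310, 11831 and 8119. All CCl4 livers lay below all vehicle livers at the later times, and the falls were 7.93-fold (adjusted p = 4.99e-07) and 17.40-fold (adjusted p = 3.11e-10). Sult2a7, a related gene, ran from 1.1 to 19.9 against 250.4 to 709.5 at 24 h, a log2 difference of -6.40 (SE 0.66, adjusted p = 2.96e-12). Of the 6 family 2 genes, 3 fell at 12 h and 5 at 24 h. These included Sult2a3 (-4.39, adjusted p = 0.000181), Sult2a5 (-3.19, adjusted p = 0.00713) and Sult2a2 (-2.18, adjusted p = 0.0486), whose call was lost without any of 8 single libraries. Sult2a1 was not called in wild type (-1.91 at 24 h, adjusted p = 0.12).

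The family 1 sulfotransferases moved apart from each other. Sult1b1, which sulfates thyroid hormones, counted 95, 292, 82, 74 and 68 against 696, 346, 459, 441 and 515 at 12 h, and 61, 87, 35, 143 and 62 against 692, 571, 789, 879 and 572 at 24 h. The groups were separate at both times and the falls were -2.21 (SE 0.32, adjusted p = 1.74e-08) and -3.28 (SE 0.32, adjusted p = 4.03e-13). Sult1a1, the main phenol sulfotransferase, fell at all 3 times. At 12 h it counted 7097, 8685, 5158, 5221 and 4453 against 14279, 14711, 17106, 19653 and 14182 (difference -1.42, SE 0.23, adjusted p = 2.02e-07), with no overlap. Its 24 h fall of -0.74 (adjusted p = 0.0046) became -0.35 (adjusted p = 0.191) with quantile normalization. Sult1d1, which sulfates catecholamines, ran from 1177.8 to 2132.0 against 3103.9 to 4630.1 at 24 h (difference -1.35, SE 0.28, adjusted p = 5.56e-05).

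Sult1e1, the estrogen sulfotransferase, was the only SULT gene called higher in wild type. At 4 h it counted 481, 647, 320, 464 and 213 in CCl4 livers against 10, 56, 41, 151 and 561.9 in vehicle livers. Vehicle replicate 5 stood among the CCl4 livers, so the groups overlapped, and the rise was 2.42 (SE 1.02, adjusted p = 0.048). That call was lost without any of 7 single libraries (adjusted p = 0.0592 to 0.192). At 12 h the counts were 154, 183, 300, 314 and 104 against 8, 69, 86, 92 and 50, which did not overlap, and the difference of 2.02 (SE 1.02) missed the threshold (adjusted p = 0.0827). Sult1c2 and Sult5a1 were not called at any time.

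**Figure D2:**
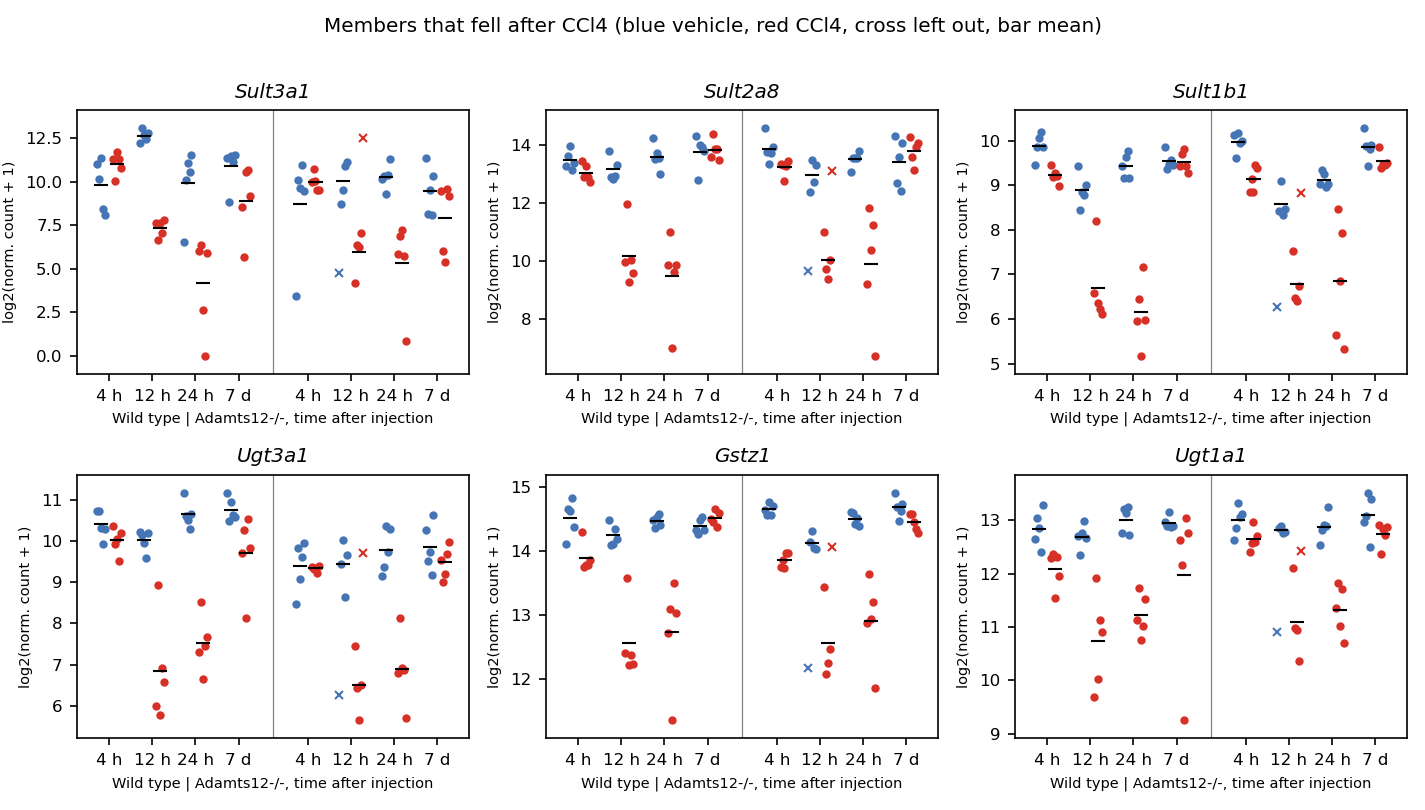
Normalized counts per library, as log2 of the count plus 1, of Sult3a1, Sult2a8, Sult1b1, Ugt3a1, Gstz1 and Ugt1a1 by genotype and time, with vehicle livers in blue, CCl4 livers in red, a bar at each group mean and a cross for each left-out library. The red points lie below the blue ones at 12 and 24 h in both genotypes, apart from the crosses, and the groups mix again at 7 days.

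Of the UGT genes, Ugt2b37, a member of the steroid and drug conjugating 2B subfamily, showed the largest rise. At 4 h it counted 5438, 2443, 2779, 3441 and 2005 in CCl4 livers against 216, 230, 686, 116 and 52 in vehicle livers. At 12 h the counts were 1669, 3089, 1273, 1041 and 938 against 831, 316, 308, 149 and 626, and at 24 h 605, 414, 667, 507 and 540 against 3, 22, 32, 7 and 52. Every CCl4 liver lay above every vehicle liver of its time. The rises were 16.47-fold (log2 4.04, SE 0.53, adjusted p = 2.15e-09), 3.84-fold (log2 1.94, SE 0.53, adjusted p = 0.00128) and 32.22-fold (log2 5.01, SE 0.53, adjusted p = 6.16e-12). The 24 h rise was 3.34 on the log2 scale (adjusted p = 0.00367) without mice numbered below 7000, which leaves 1 vehicle liver, so the folds at 4 h and 24 h have no stable order. Ugt2b38 rose at 24 h from 0.0-5.0 to 4.0-26.8 (difference 2.76, SE 0.83, adjusted p = 0.00422), at low counts. Ugt2b35 rose at 4 h, 3067.3 to 7049.7 against 1991.5 to 3691.6 (difference 0.65, SE 0.24, adjusted p = 0.0196), a call lost without any of 4 single libraries and with quantile normalization (adjusted p = 0.159).

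The other family 2 UGT genes of the chromosome 5 cluster fell or held. Ugt2b1, a steroid and drug conjugating enzyme, counted 919, 2998, 761, 942 and 872 against 9098, 5011, 4596, 3536 and 7326 at 12 h, without overlap (difference -2.32, SE 0.32, adjusted p = 5.28e-09). At 24 h its difference was -0.61 (adjusted p = 0.101), with 1837 to 3080 against 2661 to 3984. Ugt2a3 ran from 989.9 to 2062.2 against 3261.1 to 5618.6 at 24 h (difference -1.69, SE 0.29, adjusted p = 1.66e-06) and Ugt2b36 from 3952.2 to 9090.5 against 10010.8 to 11351.5 (difference -1.11, SE 0.31, adjusted p = 0.00177). Ugt2b5 was called only at 12 h (-0.92, adjusted p = 0.00219). Ugt2b34 was not called, with differences of 0.12, -0.05 and -0.15 at 4, 12 and 24 h.

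At the UGT1 locus first exons of the Ugt1a genes are spliced to a shared set of last exons. It fell nearly as a whole at 12 h, with 6 of 7 genes called lower, and 5 were at 24 h. None was called higher. Leaving out mice numbered below 7000 leaves 1 vehicle liver at 24 h. The 24 h difference then moved from -1.30 to -0.61 for Ugt1a6b, from -1.31 to -0.84 for Ugt1a10 and from -1.94 to -1.44 for Ugt1a5. For Ugt1a1 it moved from -1.78 to -1.49 and for Ugt1a6a from -1.89 to -2.04. Ugt1a1, which conjugates bilirubin, counted 824, 3886, 1038, 2235 and 1917 against 6627, 5202, 6936, 8052.6 and 6478 at 12 h, and 2229, 3389, 1732, 2087 and 2946 against 6904, 9411, 8944, 9750 and 6770 at 24 h. All CCl4 livers were lower than all vehicle livers, with falls of -1.95 (SE 0.34, adjusted p = 1.34e-06) and -1.78 (SE 0.34, adjusted p = 1.15e-05). Ugt1a5 ran from 114.4 to 641.7 against 764.2 to 1784.2 at 12 h (difference -2.42, SE 0.46, adjusted p = 7.31e-06), and Ugt1a6b from 54.5 to 259.2 against 345.6 to 559.5 (difference -2.12, SE 0.36, adjusted p = 6.34e-07). Ugt1a6a, a phenol conjugating enzyme, was already lower at 4 h, 45.2 to 97.7 against 115.3 to 225.6 (difference -1.35, SE 0.39, adjusted p = 0.00336), and was the only Ugt1a gene called at that time. Ugt1a7c, at 0.8 to 5.6 counts per kilobase in vehicle livers, was not called. These transcripts share their last exons, and how reads from those exons were counted is not given. The falls therefore cannot be taken as independent of each other.

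Both family 3 genes, which use sugars other than glucuronic acid, fell. Ugt3a1 counted 63, 487, 54, 119 and 95 against 1182, 1129, 989, 772 and 1178 at 12 h, and 157, 368, 99, 174 and 204 against 2288, 1555, 1453, 1260 and 1604 at 24 h. There was no overlap, and the falls were -3.18 (SE 0.38, adjusted p = 1e-10) and -3.12 (SE 0.38, adjusted p = 4.28e-10). Ugt3a2, which lies beside it on chromosome 15, counted 2310, 5582, 1832, 2620 and 2161 against 11582, 10230, 10642, 9977 and 11096 at 12 h. Its fall of -2.01 (SE 0.20, adjusted p = 2.28e-13) was the one with the smallest adjusted p of all members at 12 h. At 4 h Ugt3a2 was already lower by a small amount (-0.56, SE 0.20, adjusted p = 0.0166), with 7001 to 10214 against 8898 to 15435.

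**Figure D3:**
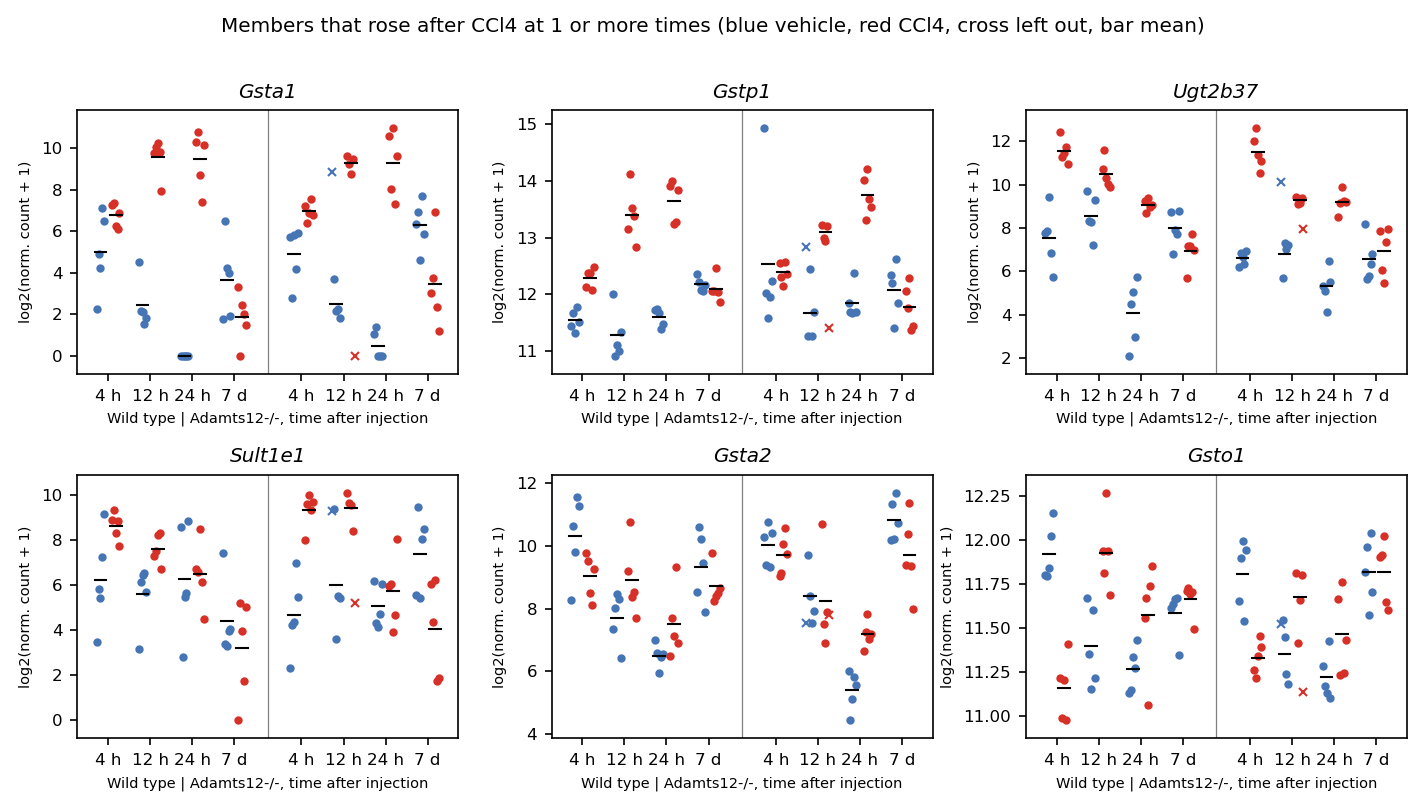
Normalized counts per library, as log2 of the count plus 1, of Gsta1, Gstp1, Ugt2b37, Sult1e1, Gsta2 and Gsto1 by genotype and time, with vehicle livers in blue, CCl4 livers in red, a bar at each group mean and a cross for each left-out library. Gsta1 separates from vehicle at 12 and 24 h and Ugt2b37 at 4, 12 and 24 h. Gsto1 is below vehicle at 4 h and, in wild type, above it at 12 h.

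Over the first day in wild type, 37 members (71.2%) were called lower at 1 time or more, against 41.3% of all genes, and 25 (48.1%) at both 12 and 24 h, against 18.6%. The 8 genes lower at all 3 times were Gsta3, Gstk1, Gstt1, Gstt2, Gstz1, Sult1a1, Ugt1a6a and Ugt3a2, and the 2 higher at all 3 were Gstp1 and Ugt2b37. These are 15.4% and 3.85% of the members, against 10% and 11.5% of all genes. The 8 called higher at least once (15.4%, against 41.9% of all genes) were Gsta1, Gsto1, Gstp1, Gstp2, Sult1e1, Ugt2b35, Ugt2b37 and Ugt2b38. A further 8 were not called at 4, 12 or 24 h (15.4%, against 20.8% of all genes): Gsta2, Gstm3, Gstm6, Sult1c2, Sult2a1, Sult5a1, Ugt1a7c and Ugt2b34. Called members whose CCl4 and vehicle livers did not overlap numbered 10 at 4 h, 22 at 12 h and 27 at 24 h. These are 19.2%, 42.3% and 51.9% of the members, against 32.3%, 37.3% and 29.2% of all genes. A fall of at least 1 on the log2 scale was seen for 25 called members at 12 h and 27 at 24 h (48.1% and 51.9%, against 15.2% and 12.9% of all genes). Some livers stood apart from their group: wild-type CCl4 12 h replicate 2 lay nearer to the vehicle mean for 24 of the 34 called members, and without it 5 rose and 30 fell. The wild-type groups also hold 12 mice with numbers below 7000, 4 of them among the 5 vehicle livers of 24 h. Without these mice a single vehicle liver is left at 24 h, assumed to vary like the other groups, and 3 members were called higher (Gsta1, Gstp1 and Ugt2b37) and 17 lower. With so few livers the loss of a call says little, and several lost calls kept their size, such as Sult1a1 (-0.74 both ways), Gstt3 (-1.47 and -1.60 without) and Sult2a2 (-2.18 and -2.35 without). Others moved: Gstp2 from 1.98 to 0.84, Gsta3 from -1.30 to -0.75, Sult2a5 from -3.19 to -1.98 and Gsto1 from 0.31 to 0.14, none then called, and among those still called Ugt2b37 from 5.01 to 3.34, Sult2a8 from -4.12 to -3.52, Sult2a7 from -6.40 to -7.27, Sult3a1 from -5.76 to -7.35 and Sult3a2 from -3.12 to -4.49. Ugt2b38 moved from 2.76 to 3.87 and was not called. At 12 h, without such mice, 5 were called higher and 32 lower.

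At 7 days no member was called in either genotype (limma; 7 members in wild type and 9 in Adamts12-/- at an unadjusted p under 0.05). Of all genes 0.055% were called in wild type (0.0275% higher and 0.0275% lower) and 0.694% in Adamts12-/- livers (0.309% higher and 0.385% lower). The smallest adjusted p of a member was 0.113 in wild type. Gstp1, for example, counted 4257, 4290, 5670, 4212 and 3725 in CCl4 livers and 5237, 4775, 4330, 4275 and 4566 in vehicle livers, and Ugt2b37 counted 51, 141, 141, 210 and 124 against 431, 111, 237, 209 and 439. These groups overlapped. In Adamts12-/- livers the smallest adjusted p was that of Gsta1, at 0.0608, with 7, 12, 120, 4 and 1 against 82, 120, 23, 208 and 58, a difference of -2.85.

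Genes that work beside these enzymes were read from fixed lists. Of 19 measured enzymes of other conjugation reactions, 0 rose and 9, 16 and 16 fell at 4, 12 and 24 h in wild type, with a median difference of -1.56 at 12 h over the list of other conjugation enzymes. They included the microsomal glutathione transferase Mgst1 (-1.56, adjusted p = 9.14e-12), the epoxide hydrolase Ephx2 (-1.86, adjusted p = 2.39e-11) and the acyl-CoA synthetase Acsm1 (-1.98, adjusted p = 3.67e-10). Of 13 genes of glutathione supply, 6 rose and 6 fell at 12 h. The risers included Gclc, the catalytic subunit of the rate-limiting ligase, at 3.89 (adjusted p = 1.33e-15), and the glutathione reductase Gsr at 1.49 (adjusted p = 2.72e-14), whereas Mat1a, which makes S-adenosylmethionine, fell by 2.40 (adjusted p = 5.08e-11). For sulfation, 0 of 6 sulfate donor supply genes rose and 3 fell at 24 h, among them the PAPS synthase Papss2 (-2.04, adjusted p = 1.17e-06) and the sulfate transporter Slc26a1 (-1.89, adjusted p = 1.19e-05). For glucuronidation, 3 of 7 UDP-glucuronate supply genes rose and 2 fell at 12 h. Ugdh, which makes UDP-glucuronate, rose by 1.52 (adjusted p = 2.07e-08) and Pgm2 by 2.20 (adjusted p = 4.2e-14), while Pgm1 fell by 1.11 (adjusted p = 5.1e-07).

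The export and deconjugation genes were mixed. Of 10 conjugate export genes, 4 rose and 4 fell at 12 h, with the basolateral exporter Abcc4 at 5.25 (adjusted p = 1.32e-16) against Abcc6 at -1.28 (adjusted p = 1.45e-06) and Abcg2 at -1.18 (adjusted p = 9.19e-06). Of 3 deconjugation genes, the arylsulfatase Arsa rose at 12 h (1.68, adjusted p = 1.65e-06), and Arsb (-0.95, adjusted p = 0.000225) and the glucuronidase Gusb (-0.60, adjusted p = 0.000248) fell.

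Of 16 xenobiotic regulators, 4 rose and 4 fell at 4 h, 2 rose and 10 fell at 12 h, and 1 rose and 10 fell at 24 h. Nfe2l2, which encodes NRF2, rose at 4 h (1.04, adjusted p = 3.99e-09). Hnf4a (-1.35, adjusted p = 4.35e-12) and Ahr (-1.69, adjusted p = 3.75e-10) fell at 12 h, and the genes of CAR, Nr1i3 (-2.54, adjusted p = 2.85e-10), and PXR, Nr1i2 (-1.53, adjusted p = 7.76e-09), at 24 h. Of 15 NRF2 targets outside the families, 8, 9 and 8 rose and 0, 1 and 1 fell at the 3 times. Srxn1, which repairs oxidized peroxiredoxins, rose by 6.00 at 4 h (adjusted p = 8.54e-24), and Txnrd1, a thioredoxin reductase, by 2.02 at 12 h (adjusted p = 2.28e-16). The falling gene at 24 h was Gclm (-1.01, adjusted p = 1.52e-08). Of 10 AhR and CAR/PXR targets outside the families, 4 rose and 4 fell at 12 h, for instance Cyp1a1 (2.46, adjusted p = 4.54e-05) and Cyp1a2 (-1.63, adjusted p = 2.46e-05). Of 15 female-predominant liver genes outside the families, 11 fell at 12 h, and of 10 male-predominant liver genes outside the families 4 fell.

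Markers of liver cells also changed after CCl4, and the lists differed in direction. All 10 pericentral hepatocyte markers fell at 12 h in wild type, and their summed level was 42412 to 58880 in CCl4 against 260899 to 318953 in vehicle livers. At 24 h this summed level was 21730 to 61618 against 324543 to 464108, and 8 of 10 were called. Of 10 periportal hepatocyte markers 7 fell at 12 h and 10 at 24 h. Of 7 general hepatocyte markers 7 fell at 12 h and 2 at 24 h, with a summed level at 12 h of 1807571 to 3515935 against 5065424 to 6300168. With quantile normalization 2 of these hepatocyte markers were called at 12 h. Of 9 infiltrating myeloid cell markers 6 rose at 24 h, with a summed level of 18510 to 27294 against 4388 to 9444. Of 8 sinusoidal endothelial cell markers 8 fell at 12 h, of 8 Kupffer cell markers 6 fell, of 8 stellate cell markers 2 fell, and of 6 cholangiocyte markers 3 rose and 1 fell. No marker was at 0 in every library. The part of these cell types in the falls and rises of the conjugating enzymes was not tested.

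In Adamts12-/- livers, too, most of the members called after CCl4 fell. At 4 h 3 members rose and 14 fell, at 12 h 5 rose and 24 fell, and at 24 h 7 rose and 28 fell, where 21.1% and 17.7%, 23.6% and 23.1%, and 21.1% and 23% of all genes were called higher and lower. In either direction 38.8%, 46.7% and 44.1% of all genes were called, against 32.7%, 55.8% and 67.3% of the members. Called the same way in both genotypes were 2 rises and 11 falls at 4 h, 4 and 23 at 12 h, and 5 and 26 at 24 h, and 0 members were called in opposite directions. As shares these are 3.85% and 21.2%, 7.69% and 44.2%, and 9.62% and 50% of the members, against 18.3% and 13.7%, 21.9% and 20.8%, and 17.6% and 19.3% of all genes. The vehicle groups differ between the genotypes, so these comparisons share no library. At 12 h, without CCl4 replicate 1, which lay nearer to the vehicle mean for 14 of 29 called members, 4 rose and 32 fell. Without vehicle replicate 3 of that time, 6 rose and 21 fell. With all 80 libraries, the pair that stood with the other treatment included, only Gsta1 was called higher and 8 members were called lower. The shares of all genes called in these altered sets are not given, so a change in count is not particular to the members.

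Gsta1 in Adamts12-/- livers counted 790, 600, 431 and 722 in CCl4 against 12, 3, 4 and 2 in vehicle livers at 12 h, and 1566, 262, 1983, 160 and 778 against 1, 2, 0, 0 and 0 at 24 h. The groups were far apart at both times. The 12 h difference was 6.81 (SE 0.87, adjusted p = 1.9e-09). The 24 h vehicle group held 2 reads in all, so no fold is given. At 4 h the difference was 2.08 (adjusted p = 0.0282), without overlap, and was lost without any of 4 single libraries. Ugt2b37 counted 4132, 6141, 2624, 1465 and 2150 against 72, 115, 99, 80 and 120 at 4 h, which is 30.20-fold higher (log2 4.92, SE 0.53, adjusted p = 6.15e-12). It was 5.52-fold higher at 12 h (adjusted p = 0.000416) and 14.69-fold higher at 24 h (adjusted p = 1.6e-08), and no liver overlapped at any of these times.

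Gstp1 in Adamts12-/- livers shows the reach of a single library. At 4 h it counted 5972, 5095, 4517, 6080 and 5251 in CCl4 against 30923, 4151, 3062, 3946 and 4812 in vehicle livers, and the first vehicle value belongs to the library with low Xist. The difference was -0.15 (adjusted p = 0.717) with that library and 0.44 (adjusted p = 0.104) without it. At 12 h and 24 h Gstp1 was 2.68-fold (adjusted p = 0.00019) and 3.70-fold (adjusted p = 2.19e-07) higher, with no overlap. Without the low-Xist library the 4 h comparison called 3 members higher and 13 lower. Sult1b1 (-0.80, adjusted p = 0.0571) and Ugt2b1 (-0.72, adjusted p = 0.0762) were no longer called, and Sult1a1 was (-0.67, adjusted p = 0.0185). The 4 h rises without it were 2.29 for Gsta1 (adjusted p = 0.0252), 4.08 for Sult1e1 (adjusted p = 0.00173) and 4.82 for Ugt2b37 (adjusted p = 1.37e-10).

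Several rises were larger or were called in Adamts12-/- livers and not in wild type, and the test of the difference, given with the genotype comparison, called none of them. Sult1e1 counted 255, 778, 1030, 642 and 833 against 4, 18, 19, 124 and 43 at 4 h, with no overlap (difference 4.67, SE 1.02, adjusted p = 0.000156). At 12 h it counted 1095, 800, 754 and 333 against 671, 11, 44 and 42 (difference 3.44, adjusted p = 0.0104), where vehicle replicate 2 lay among the CCl4 livers. Gsta2 rose at 24 h, 100, 150, 224, 129 and 146 against 64, 21, 33, 56 and 46 (difference 1.80, SE 0.57, adjusted p = 0.00803), without overlap. Gsta4 rose at 24 h, 176, 973, 384, 864 and 1295 against 423, 173, 323, 269 and 246 (difference 1.11, adjusted p = 0.0266), with CCl4 replicates 1 and 3 among the vehicle values, and was lost without any of 4 single libraries. Gstp2 ran from 74.0 to 247.5 against 3.2 to 26.6 at 24 h, a rise of 3.29 (adjusted p = 2.34e-08).

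Falls called in wild type and in Adamts12-/- livers included those of Sult3a1, Sult2a8, Sult1b1, Ugt1a1 and Gstz1. Other falls were called in a single genotype, for instance those of Sult1d1, Ugt2b5 and Ugt1a9 at 12 h in wild type and of Sult2a5 at 12 h and Sult2a1 at 24 h in Adamts12-/- livers. Sult3a1 counted 17, 81, 76 and 134 against 421, 727, 1945 and 2258 at 12 h (difference -4.11, SE 1.16, adjusted p = 0.00259). Sult2a8 counted 596, 3607, 1321, 2432 and 105 against 8588, 12023, 11847, 11876 and 14275 at 24 h (difference -3.62, adjusted p = 1.68e-08). Neither pair of groups overlapped. Sult1b1 counted 49, 353, 115, 241 and 39 against 521, 649, 606, 500 and 518 at 24 h (difference -2.28, adjusted p = 2.82e-08). Ugt1a1 counted 2632, 3636, 2062, 3368 and 1669 against 5955, 7219, 7660, 7591 and 9764 at 24 h (difference -1.56, adjusted p = 0.000138). Gstz1 counted 7506, 12658, 7847, 9388 and 3717 against 24863, 24534, 21857, 23446 and 21356 at 24 h (difference -1.60, adjusted p = 2.78e-08). The CCl4 livers were lower throughout, and CCl4 replicate 2, the highest in Sult2a8, Sult1b1, Ugt1a1 and Gstz1, lay nearer to the vehicle mean for 19 of the 35 called members.

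The test of whether the CCl4 effect differed between the genotypes called 0 members at 4, 12 or 24 h, at 7 days, or at any time (limma; 1, 0, 3, 1 and 0 members at an unadjusted p under 0.05). Of all genes 0.00687% were called at 4 h, 0% at 12 h, 0% at 24 h, 0.00687% at 7 days and 0.0137% at any time. The members with an unadjusted p under 0.05 were Gstp1 at 4 h (Adamts12-/- minus wild-type effect -0.90, SE 0.41, adjusted p = 1, and -0.30 without the low-Xist library), Sult1b1 (1.01, SE 0.45, adjusted p = 0.936), Gstt2 (0.86) and Gstp2 (1.30) at 24 h, and Gstp3 at 7 days (-0.81). For Sult1e1 at 4 h the effects of 2.42 and 4.67 differed by 2.25 (SE 1.45, adjusted p = 1), so a difference of this size was not detectable with this spread. Between the genotypes within CCl4 livers 0 members were called at 4 h, 12 h, 24 h or 7 days (limma; 0, 4, 2 and 4 at an unadjusted p under 0.05), against 0.584%, 0.0206%, 0.0137% and 0% of all genes.

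**Figure D4:**
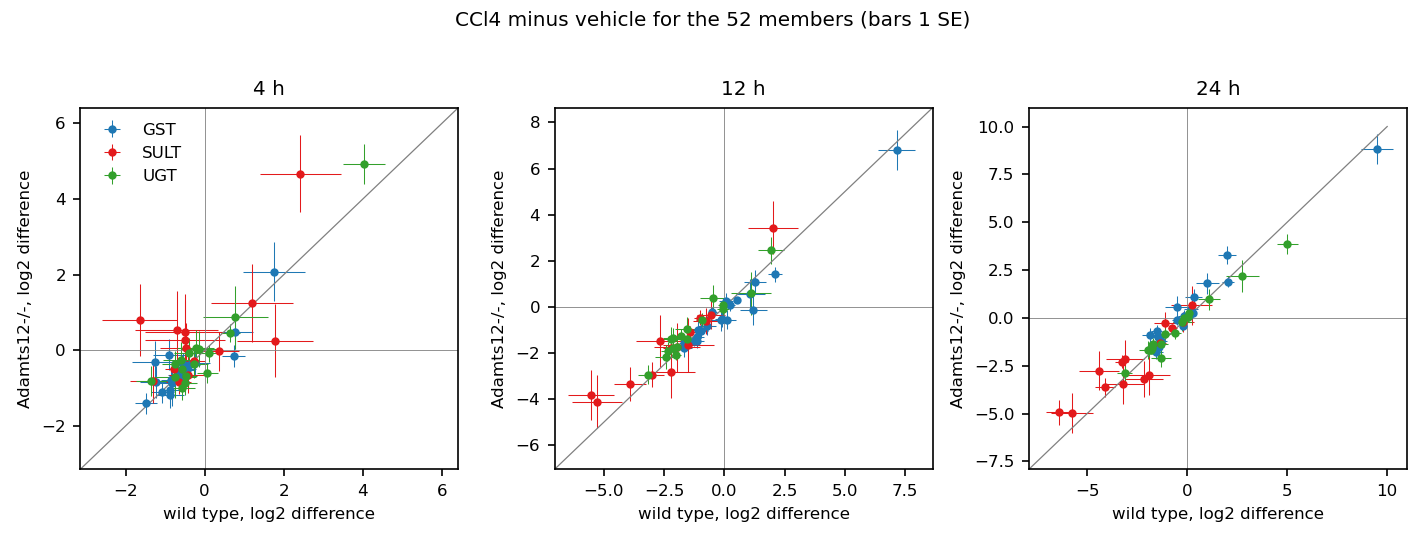
CCl4 minus vehicle difference (log2) of each member in wild type on the horizontal axis and in Adamts12-/- livers on the vertical axis at 4, 12 and 24 h, coloured by superfamily, with bars of 1 SE and the line of equal effects. Gsta1 lies at the upper right at 12 and 24 h and Sult3a1 at the lower left, and no member passed the test for a difference from the line.

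Between the genotypes over all vehicle livers 1 member was called, lower in Adamts12-/- (limma; of all genes 0.282% were called in either direction, 0.11% higher and 0.172% lower). This was Ugt3a1, at 772 to 2301 normalized counts in 20 wild-type and 355 to 1584 in 19 Adamts12-/- vehicle livers, with a difference of -0.84 (SE 0.19, adjusted p = 0.0286). The ranges overlapped. The differences at 4, 12 and 24 h and 7 days were -1.01, -0.57, -0.86 and -0.90, none called alone. At the single times 0 members were called in vehicle livers (limma; 7, 5, 4 and 8 at an unadjusted p under 0.05), against 0.343% of all genes at 4 h (0.0618% higher and 0.282% lower), 0% at 12 h, 0% at 24 h and 0.055% at 7 days (0.0206% higher and 0.0343% lower). Without the low-Xist library the difference was -0.78 (adjusted p = 0.0524), and it was also not called without vehicle 12 h replicate 4. Ugt3a2 differed by -0.33 (SE 0.10, adjusted p = 0.234). In GENCODE annotation of GRCm38, Ugt3a1 lies at chr15:9276888-9315032 and Ugt3a2 at chr15:9335550-9370955, which is 1.75 and 1.69 Mb from Adamts12 at chr15:11064790-11349231. The part of this position in the difference was not tested.

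The vehicle level itself differed between the times for many members. Among wild-type vehicle livers 31 of 52 members differed between the 4 times and among Adamts12-/- vehicle livers 28, where 38.9% and 41.7% of all genes did, and 24 did in both. GST genes were 15 and 16 of these. The labels give the time after injection and not the hour of the day. Time since the oil injection and time of day therefore cannot be told apart. Of 15 clock and PAR bZIP factors, 14 and 13 differed between the same vehicle groups. In wild type, 4 of the 5 vehicle mice at 24 h and 2 of the 5 at 7 days are numbered below 7000. The Adamts12-/- groups hold 0 such mice, so mouse number is mixed with time in wild type only. Of the 24, 10 had their lowest mean at 12 h in both genotypes (Gsta3, Gstm1, Gstm2, Gstm2-ps1, Gstm4, Gstm6, Sult1d1, Sult2a5, Ugt2a3 and Ugt2b36), 9 at 24 h (Gsta1, Gsta2, Gsta4, Gsto1, Gstp3, Gstt1, Sult1a1, Sult1c2 and Ugt2b1) and 1, Sult2a7, at 4 h. The share of all genes called in both genotypes, or lowest at each time, is not given, so these counts describe the members only.

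Gsta2 showed a wide course. Wild-type vehicle livers counted 307, 1575, 887, 2992 and 2452 at 4 h, 163, 255, 350, 315 and 85 at 12 h, 126, 94, 60, 87 and 93 at 24 h, and 366, 1547, 1201, 699 and 234 at 7 days (adjusted p = 1.15e-06). Adamts12-/- vehicle livers averaged 43.9 at 24 h and 1980.2 at 7 days (adjusted p = 2.51e-11). The 24 h livers of each genotype were below all the 4 h and 7 day livers of that genotype. Gsta4 counted 1709, 1916, 1665, 2182 and 2119 at 4 h and 329, 473, 317, 361 and 356 at 24 h in wild type, again without overlap (adjusted p over the 4 times = 2.09e-05). Sult2a7 ran the other way, with 25, 52, 43, 24 and 26 at 4 h and 464, 345, 250, 310 and 709 at 24 h (adjusted p = 0.000206). Ugt2b37 counted 831, 316, 308, 149 and 626 at 12 h and 3, 22, 32, 7 and 52 at 24 h in wild type (adjusted p = 1.45e-09), and in Adamts12-/- vehicle livers the same test missed the threshold (adjusted p = 0.0672). The wild-type 24 h count of 52 belongs to replicate 5, and the 4 others to mice numbered below 7000. Gstm6, not called after CCl4, differed between the vehicle times in both genotypes (adjusted p = 4.61e-06 and 3.67e-07).

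**Figure D5:**
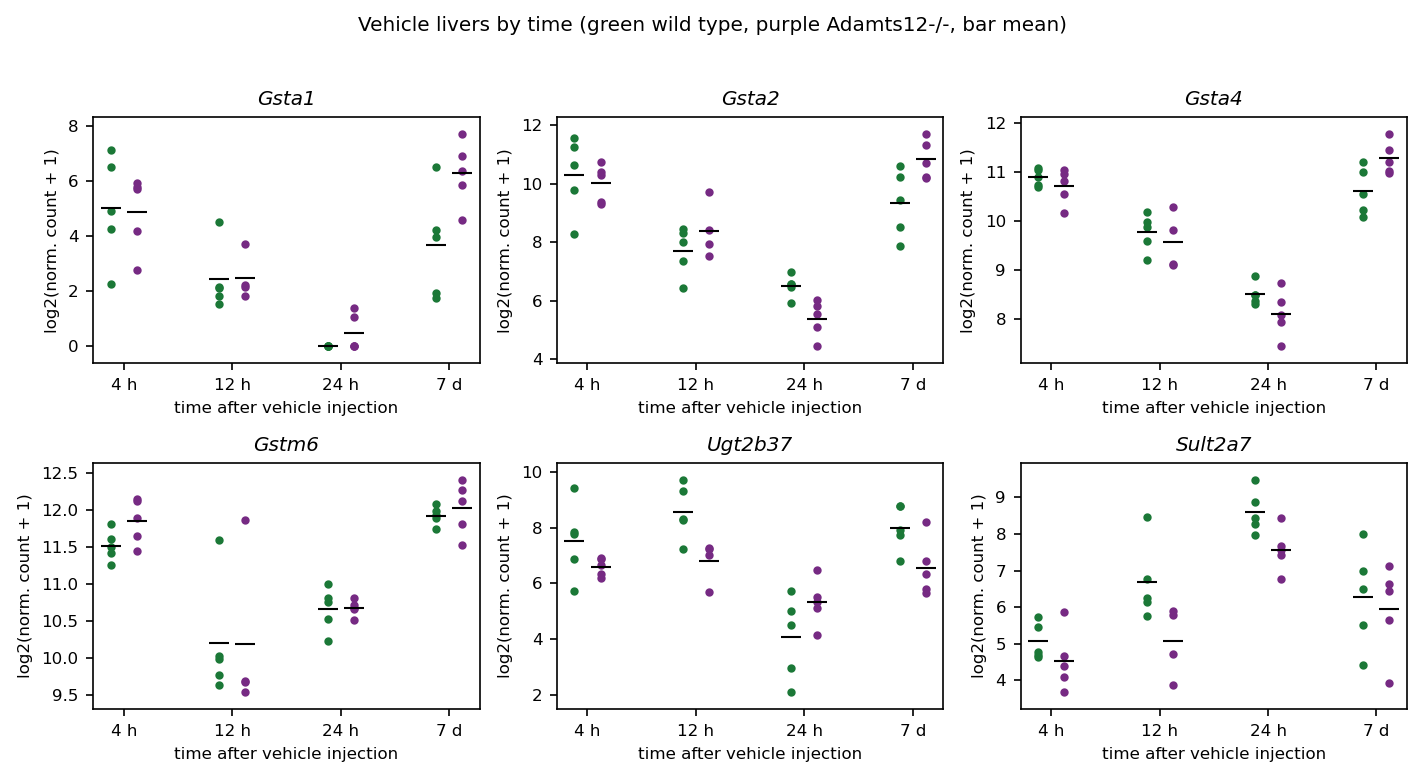
Normalized counts per vehicle liver, as log2 of the count plus 1, of Gsta1, Gsta2, Gsta4, Gstm6, Ugt2b37 and Sult2a7 at 4 h, 12 h, 24 h and 7 days, with wild type in green, Adamts12-/- in purple and a bar at each group mean. Gsta1, Gsta2 and Gsta4 are lowest at 24 h and Sult2a7 is highest at 24 h in both genotypes.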

How the data were processed

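The deposited table holds one value per gene and library, and per the submitters' processing notes reads were aligned with STAR to GRCm38 and counted with HTSeq, and DESeq2 was used. Per the labels' protocols, libraries were stranded mRNA libraries. The deposited signal is a normalized count: each library's values are whole multiples of 1 step (tolerance 0.01, 100.0% of values), that is, reads divided by a factor for the library. From these values, limma 3.58.1 in R 4.3.3 was fitted to log2 of the value plus a pseudocount of 1, with 16 group means, 78 libraries and moderated variances with a trend. Genes that reached 10 normalized counts in 5 or more libraries were tested (14558 genes), p-values were adjusted by Benjamini-Hochberg per comparison over all of them, and the threshold was 0.05. The statistics step was tested on simulated data with 1 setting of the spread for all genes. In the real data the median residual SD on the log2 scale was 0.334 for all genes and 0.591 for the members. The simulation therefore does not cover the members that vary most.

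The floor behind a bound is 3 reads per library, which is 1.16 to 6.02 normalized counts, and it covers counting error only. Markers and pathway genes were counted from hand-written lists. The members and lists were chosen with earlier results of these data known. The rule for named genes took, per family and comparison, the largest rises and falls among called members with a mean of at least 100. In departure from it, values per library are given for 17 members and the lowest and highest value for the others.

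Alternatives were a pseudocount of 8, no filter, quantile normalization, TMM scaling, all 80 libraries, a block for the replicate number, leaving out mice numbered below 7000, and leaving out each library. The fit without the low-Xist library was chosen after seeing the data. Replicate numbers do not pair the samples (mean correlation of deviations 0 for the same number and 0.001 for other numbers).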

Additional observations from a re-analysis of the deposited data

Results flagged for a closer look

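The members shown per library were searched for a liver that stood far from the other libraries of its group, measured as the gap to its nearest neighbour over the range of the group. This was so in 46 of 271 group tests, over 17 members. The cutoffs give about 1 in 20 for independent tests of normally distributed values. These tests used counts without a log and share livers between genes, so their number cannot be set against that rate. Many of the flagged values belong to the same few livers.

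Wild-type CCl4 12 h replicate 2 stood above its group in Gsta2 (1728), Gsta3 (18460), Gstz1 (12196), Sult1b1 (292), Sult2a8 (3943), Ugt2b1 (2998), Ugt3a1 (487) and Ugt3a2 (5582). Adamts12-/- CCl4 12 h replicate 1 stood above its group in Gsta2 (1668), Gsta3 (13692), Gsta4 (1780), Sult1a1 (14623) and Ugt2b1 (4139). Adamts12-/- vehicle 12 h replicate 3 stood apart in Gsta3 (43903), Sult1b1 (544) and Ugt2b1 (11243), and the low-Xist library, vehicle 4 h replicate 1, in Gstp1 (30923) and Ugt2b1 (22425). Wild-type CCl4 24 h replicate 4 stood apart in Gsta2 (647) and Ugt2b1 (3080).

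Other single livers were at 22, 90.1, 12 and 120 normalized counts of Gsta1 (wild-type vehicle 12 h and 7 days, Adamts12-/- vehicle 12 h and CCl4 7 days). For Gsta2 1 liver was at 865 (wild-type CCl4 7 days), for Gsta3 at 32270 (wild-type vehicle 12 h), for Gsta4 at 473 (wild-type vehicle 24 h) and for Gsto1 2 livers at 2887 and 2610 (wild-type CCl4 and vehicle 7 days). Gstp1 had 1 at 5340 (Adamts12-/- vehicle 24 h) and Gstz1 1 at 20101 (wild-type CCl4 4 h). Sult1a1 had livers at 14787 (wild-type vehicle 7 days), 12638 and 12936 (Adamts12-/- CCl4 and vehicle 24 h), and Sult1b1 1 at 923 (Adamts12-/- CCl4 7 days).

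Sult1e1 had livers at 561.9, 358 and 171 (wild-type vehicle 4 h, CCl4 24 h and vehicle 7 days) and at 671 and 260 (Adamts12-/- vehicle 12 h and CCl4 24 h). Sult2a8 had 1 at 6845 (Adamts12-/- CCl4 4 h), Sult3a1 1 at 465 and Ugt1a1 1 at 9162 (both wild-type vehicle 7 days). Ugt2b1 had 1 at 13192 (wild-type vehicle 7 days), and Ugt2b37 livers at 686 (wild-type vehicle 4 h) and 293 (Adamts12-/- vehicle 7 days).

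The CCl4 effect differed between the 4 times in wild type for 34 members, by limma. Outside the comparisons, the left-out Adamts12-/- CCl4 12 h library lay nearer to the vehicle mean for 28 members and the left-out vehicle library nearer to the CCl4 mean for 29 members.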

How the results depend on the processing

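No call of a member reversed its direction under any alternative. Counts under the alternatives, here and above, are of members only, and the share of all genes called in the same fits is not given. With quantile normalization 1 member rose at 4 h in wild type, and 1 member, Gsta1, was called lower at 7 days in Adamts12-/- livers (-3.18, adjusted p = 0.0404). With all 80 libraries 2 members rose at 4 h in wild type, and 1 rose and 8 fell at 12 h in Adamts12-/- livers. Without mice numbered below 7000, which leaves 1 vehicle liver at 24 h in wild type, 3 members rose and 17 fell there, and several lost calls kept their size (Sult1a1 at -0.74 both ways, Gstt3 at -1.47 and -1.60 without). With 77 libraries, without the low-Xist library, 0 members differed between the genotypes in vehicle livers.

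Leaving out 1 library at a time, rises and falls in wild type ranged from 1 to 5 and 11 to 16 at 4 h, 5 to 6 and 27 to 30 at 12 h, 5 to 7 and 26 to 29 at 24 h, and 0 and 0 to 3 at 7 days. In Adamts12-/- livers they ranged from 2 to 3 and 10 to 15, 4 to 6 and 21 to 32, 6 to 7 and 20 to 30, and falls at 7 days from 0 to 2. The lowest count of rises at 4 h, with only Ugt2b37 left, came without wild-type vehicle replicate 1. The 3 falls at 7 days came without wild-type CCl4 replicate 4, and the Adamts12-/- calls at 7 days without CCl4 replicate 1 or 3 or vehicle replicate 3. Members lower by genotype in vehicle livers ranged from 0 to 1, members higher by genotype at 4 h in vehicle and at 24 h in CCl4 livers from 0 to 1 each, and those with different vehicle times from 29 to 35 in wild type and 22 to 31 in Adamts12-/- livers. The interaction called 0 members throughout (limma).

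With the replicate block, 3 members rose and 14 fell at 4 h, 5 and 29 at 12 h, and 6 and 28 at 24 h in wild type, and 3 and 14, 4 and 24, and 7 and 27 in Adamts12-/- livers. The calls lost with the replicate block were Sult1e1 at 4 h in wild type (adjusted p = 0.0522), Gsto1 at 12 h (adjusted p = 0.0616) and Gstt2 at 24 h (adjusted p = 0.0548) in Adamts12-/- livers. Of 416 member results, 408 kept their direction and side of the threshold with a pseudocount of 8, 416 without the filter, 414 with TMM scaling and 395 with quantile normalization, as did 3866 of 4056 with single libraries left out. The planned count test in edgeR was not run. Depth limits Gsta1 and Sult3a1, whose lowest libraries are at 0 reads, and shared sequence limits the Gsta1, Gstp2 and Ugt1a values.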
